A study of Mus musculus with 6 samples.

Results

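Transcription factors that direct the dendritic cell (DC) and macrophage lineages were followed through bulk RNA sequencing of DC sorted from mouse tumors. The 9 genes, Spi1, Maf, Klf4, Zeb2, Zbtb46, Id2, Bcl6, Nfil3 and Batf3, were taken by name from a table of 23224 gene symbols, where Spi1 stands under its older symbol Sfpi1. All 9 were found, and all 9 passed the filter on low counts, which 13223 genes passed. MC57-SIY cells, a mouse fibrosarcoma line carrying the model T cell antigen SIY, grew for 7 days under the skin of C57BL/6 mice. The 3 groups, of 2 libraries each, were CD103+ DC1 from Rag2-/- hosts, ISG+ DC from Rag2-/- hosts, and ISG+ DC from WT hosts. Without RAG2, mice form no mature T or B cells. Both populations of the Rag2-/- hosts carry that deletion, and there was no CD103+ DC1 library from WT hosts. No gate for ISG+ DC and no age of the mice is stated. The labels speak of 2 independent experiments for each kind of sample, and how many mice stand behind a library is not stated.

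DC and macrophages are sorted into lineages by factors that oppose or reinforce each other. PU.1, encoded by Spi1, is needed by all of these cells, and high PU.1 favours the myeloid fates. In the DC1 branch, the cross-presenting DC, NFIL3 represses Zeb2, which lets Id2 and then BATF3 and IRF8 come up. ZEB2, a zinc finger repressor, favours the alternative fates. KLF4 is used by a subset of the CD11b+ cDC2 branch and by monocytes, MAF by resident macrophages, and ZBTB46 marks conventional DC as against macrophages. BCL6 is a repressor needed for DC1 development.

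Total estimated counts ran from 6023510 in CD103+ DC1 replicate 3 to 15368616 in Rag2-/- ISG+ DC replicate 2. The CD103+ DC1 libraries were the least alike pair: their rank correlation over tested genes was 0.882, against 0.934 and 0.921 within Rag2-/- and WT ISG+ DC. With 2 libraries, which of them stands apart cannot be told, so results that change without either are given without it too. Rag2 itself was found in the libraries labelled Rag2-/-, with 39 and 11 counts for CD103+ DC1 and 40 and 2 for ISG+ DC, and was at 0 in both libraries labelled WT. Which part of the gene the allele lacks is not stated, so these reads do not check the labels. WT and Rag2-/- below mean the libraries labelled so, and the directions of all 3 comparisons rest on those labels. Levels are CPM, counts scaled to a common library total, with TMM factors. Fold changes come from the quasi-likelihood test of edgeR, and its p-values were adjusted over all 13223 genes by the Benjamini-Hochberg method, with a threshold of 0.05. The p-values rest on the spread between libraries within all 3 groups, so the CD103+ DC1 pair also enters those between hosts. In the test each gene's spread was drawn toward that of all genes (prior degrees of freedom 7.34, against 3 residual).

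The 9 DC1 markers summed to 5783 to 9331 CPM in CD103+ DC1, against 1174 to 1357 in Rag2-/- ISG+ DC and 926 to 930 in WT ISG+ DC. They include Itgae, which encodes CD103. The 7 CD11b+ cDC2 markers summed to 111 to 141 CPM in CD103+ DC1, 2331 to 2753 in Rag2-/- ISG+ DC and 2996 to 3100 in WT ISG+ DC. Despite the larger sum, only 3 of the 7 were higher in WT than in Rag2-/- ISG+ DC. Their median log2 fold change there was -0.61, and none passed the test. The 14 macrophage and monocyte markers were present in all groups and summed to 771 to 902 CPM in CD103+ DC1, 3089 to 4759 in Rag2-/- ISG+ DC and 9703 to 9791 in WT ISG+ DC. The 5 genes shared by conventional DC of either kind went the other way, at 1233 to 1533, 508 to 647 and 229 to 360 CPM. For the label ISG+, 10 interferon-stimulated genes listed after the data were seen (Isg15, Ifit1, Rsad2 and others) summed to 2031 to 2413 CPM in CD103+ DC1, 3972 to 4732 in Rag2-/- ISG+ DC and 1670 to 1713 in WT ISG+ DC. The libraries labelled WT ISG+ DC thus stood below those of CD103+ DC1 in this list, which goes against the name ISG+. None of the 14 macrophage and monocyte markers was at 0 in any group. Neutrophil markers were low in CD103+ DC1 and Rag2-/- ISG+ DC (12.4 to 38.6 CPM over 4 genes, with S100a8 and S100a9 at 0). They summed to 139 to 147 CPM in WT ISG+ DC, with S100a8 at 0. Of the 4 genes 2 were tested between hosts, and only 1 of these, Csf3r, was higher in WT ISG+ DC. T cell markers (7 genes) summed to 10.8 to 18.5 CPM in CD103+ DC1 and 7.07 to 25.2 in Rag2-/- ISG+ DC. In WT ISG+ DC they summed to 26.6 to 32.2 CPM. Of the 5 tested, 4 were higher in WT than in Rag2-/- ISG+ DC (median log2 fold change 1.87), and none passed. The summed NK and innate lymphoid markers (6 genes, Klrb1c at 0 in every group) followed the order of the macrophage list, at 5.92 to 13.2, 39.7 to 48.3 and 119 to 169 CPM. Only 3 of the 6 were tested. Of these, 1 had groups that did not overlap in each comparison, and 2 were higher in WT than in Rag2-/- ISG+ DC. Fibroblast and tumor matrix markers (6 genes) summed to 417 to 1003 CPM in CD103+ DC1 and 628 to 1013 in Rag2-/- ISG+ DC, against 37.3 to 343 in WT ISG+ DC, where Lum was at 0. Plasmacytoid DC markers (5 genes) summed to 38.7 to 40.3 CPM in CD103+ DC1. Their sums were 75.4 to 95.9 CPM in Rag2-/- ISG+ DC and 63.9 to 72.4 in WT ISG+ DC. In bulk samples fewer cells of a type and less RNA per cell cannot be told apart. The part of macrophage, monocyte, neutrophil, T cell, innate lymphoid, plasmacytoid DC or fibroblast RNA in the differences below was not tested.

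**Figure D1:**
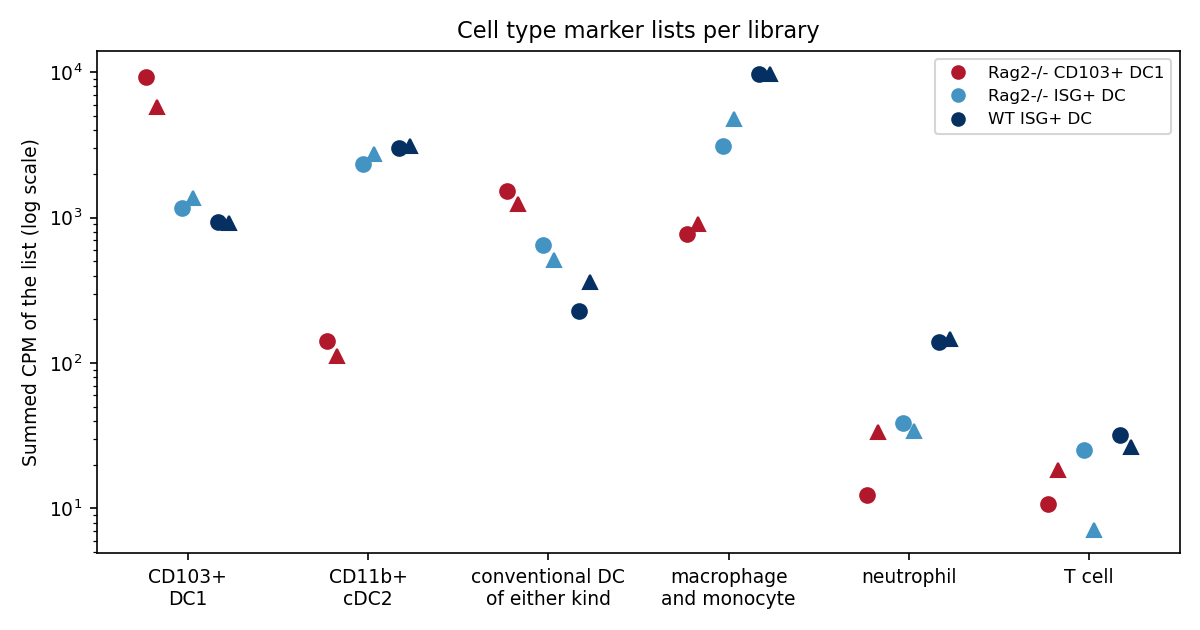
Summed CPM (log scale) of marker lists in each of the 6 libraries, by sorted group; the circle is the lower and the triangle the higher replicate number of a group. Macrophage and monocyte markers rise from 771 to 902 CPM in CD103+ DC1 to 9703 to 9791 in WT ISG+ DC, while the conventional DC list runs the opposite way.

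Promoter letters are shown for the member with the greatest rise and the one with the greatest fall between populations. Of the 9 members, 6 were matched and used in RefSeq's promoter table (GRCm38.p6), with 10 windows of 250 bases before an annotated start. Zeb2 has 4 of these windows, and which start the tumor DC used is not known. The Zeb2 window chosen is the one that holds AP-1 letters. It lies on the minus strand at chr2:45110278-45110527, and the Id2 window on the minus strand at chr12:25096093-25096342. Capitals mark TGACTCA, the AP-1 site bound by BATF3 with JUN partners, and GAGGAA, the core of PU.1 sites, on either strand.
Zeb2: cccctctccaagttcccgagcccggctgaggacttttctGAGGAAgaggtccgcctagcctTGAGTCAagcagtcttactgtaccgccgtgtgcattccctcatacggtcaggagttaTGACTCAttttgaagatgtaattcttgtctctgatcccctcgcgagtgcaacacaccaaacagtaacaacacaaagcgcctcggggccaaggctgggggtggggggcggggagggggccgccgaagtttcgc
Id2: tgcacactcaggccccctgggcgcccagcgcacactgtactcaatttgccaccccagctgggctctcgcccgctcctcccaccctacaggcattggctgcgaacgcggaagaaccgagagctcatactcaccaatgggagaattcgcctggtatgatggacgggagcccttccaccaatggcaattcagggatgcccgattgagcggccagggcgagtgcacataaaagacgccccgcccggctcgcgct

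In this Zeb2 window the AP-1 letters stood at 2 places, 189 and 132 bases before the start, and the PU.1 core at 1, 211 bases before it, with no overlap. The AP-1 letters occurred in 1 of the 10 member windows and in 4.46% of 32851 windows of the same length over all genes. The PU.1 core occurred in 6 of the 10, all 4 of Zeb2 and 1 each of Batf3 and Bcl6, against 23.3% of all windows. Windows of 1 gene overlap or share a locus, so they are not independent. The Id2 window held none of the 7 motifs searched on both strands. The others were CACCTG (the E2-box of ZEB factors; 17.2% of all windows), TGCTGAC (MAF; 3.81%), GGGTGTGG (KLF; 3.2%), TTANGTAA (NFIL3; 2.06%) and TTCCNNGAA (BCL6; 4.06%). Of these only TTCCNNGAA occurred in the 10 windows, in 1 of Batf3 and 1 of Bcl6.

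Within Rag2-/- hosts, ISG+ DC differed from CD103+ DC1 most in Zeb2 and Id2, in opposite directions. Zeb2 was 9.78-fold higher and Id2 5.65-fold lower in ISG+ DC, and Klf4 was 2.24-fold higher. These 3 of the 9 members passed the test, 2 higher and 1 lower, where 3.69% of all genes tested passed (2.83% higher and 0.862% lower). The other 6 did not pass. The groups did not overlap in 8 of the 9 members, against 45.9% of all genes tested. The median log2 fold change was 0.70 over the members and -0.02 over all genes. At an unadjusted p under 0.05 stood 6 of the 9, against 14.9% of all genes tested. The number of members past the threshold rose when either CD103+ DC1 library was left out. It fell when either Rag2-/- ISG+ DC library or either WT ISG+ DC library was left out. The number of all genes past the threshold also changed with the library left out.

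Zeb2, the repressor that opposes the DC1 fate, was at 60.0 and 75.9 CPM in CD103+ DC1 replicates 2 and 3. It was at 614 and 713 CPM in Rag2-/- ISG+ DC replicates 2 and 3, and at 1096 and 1285 CPM in WT ISG+ DC replicates 1 and 2. No library of 1 group came near another group, and the order was CD103+ DC1, Rag2-/- ISG+ DC, WT ISG+ DC. The log2 change between populations in Rag2-/- hosts was 3.29 ± 0.26 (SE; edgeR adjusted p = 0.000158), the 10th smallest p of all genes tested. It ran from 3.12 to 3.49 over the 13 alternative settings, with adjusted p-values up to 0.00333. A microRNA and an antisense RNA gene overlap Zeb2, and since no strand setting is given their reads cannot be separated from its own.

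Id2, an inhibitor that binds E proteins and keeps them off DNA, is needed for DC1. It was at 513 and 647 CPM in CD103+ DC1, 98.0 and 107 CPM in Rag2-/- ISG+ DC, and 128 and 137 CPM in WT ISG+ DC. CD103+ DC1 stood far above both ISG+ DC groups, which lay close together. The log2 change between populations was -2.50 ± 0.26 (edgeR adjusted p = 0.000812), and -2.66 to -2.30 over the alternatives.

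The ratio of 2 genes within a library does not depend on how libraries are scaled, except through the 1 CPM added to each gene. That dependence is greatest for genes of low level. The log2 ratio of Zeb2 to Id2, with 1 CPM added to each, was -3.07 and -3.08 in CD103+ DC1, 2.64 and 2.72 in Rag2-/- ISG+ DC, and 3.09 and 3.22 in WT ISG+ DC. The shift between populations was 5.75, against an SD between replicates of at most 0.09. The absolute size of such a ratio also depends on gene length, so only its shifts between libraries are read. With 2 libraries against 2, an exact permutation test cannot go below p = 0.333, so no test was run on these ratios.

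**Figure D2:**
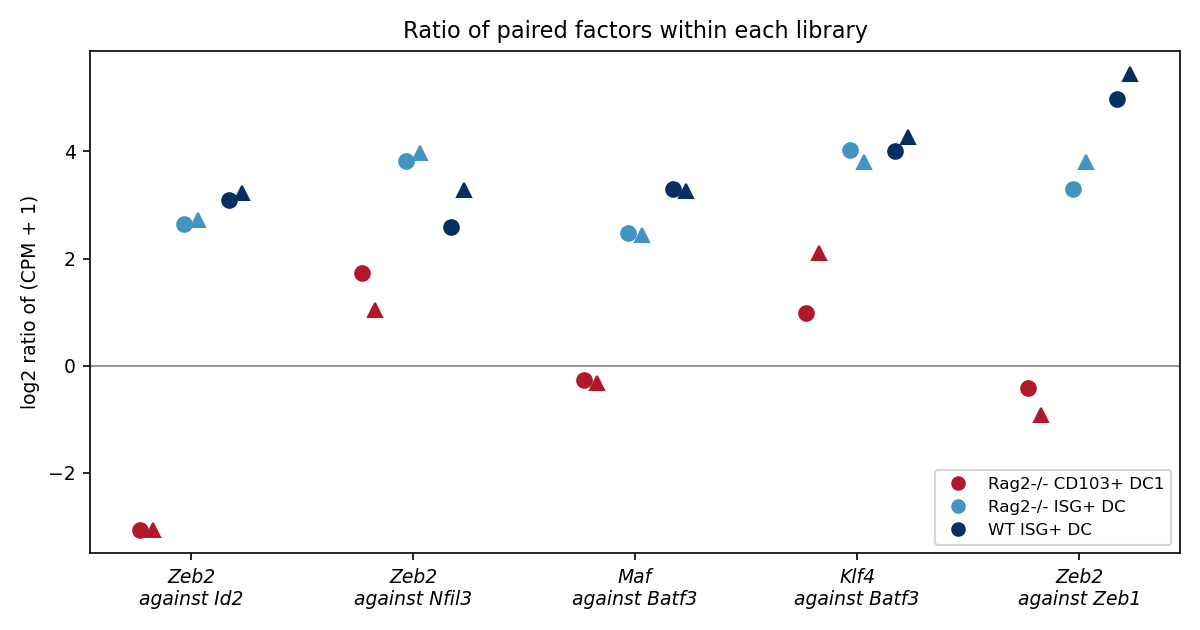
Log2 ratio of (CPM + 1) of 2 genes within each library, for 5 pairs; colours give the group, circle and triangle the lower and higher replicate number. Zeb2 against Id2 lies at about -3.07 in CD103+ DC1 and between 2.64 and 3.22 in the 4 ISG+ DC libraries.

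Klf4, a zinc finger factor of monocytes and of a cDC2 subset, was at 63.6 and 77.8 CPM in CD103+ DC1. It was at 159 and 157 CPM in Rag2-/- ISG+ DC and at 282 and 332 CPM in WT ISG+ DC. The 3 groups did not overlap and followed the order of Zeb2. The change between populations was 1.16 ± 0.27 on the log2 scale (edgeR adjusted p = 0.0404). This call was lost, with adjusted p-values of 0.0629 to 0.232 and values of 1.15 to 1.17, without either Rag2-/- ISG+ DC library and without either WT ISG+ DC library; it was also lost with the replicate number as a block (adjusted p = 0.0839), with RLE factors (0.0525) and with a fit to these 2 groups alone (0.134).

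Spi1, which encodes PU.1, was at 161 and 163 CPM in CD103+ DC1, 302 and 321 CPM in Rag2-/- ISG+ DC, and 290 and 338 CPM in WT ISG+ DC. CD103+ DC1 stood at the lower level, and the ISG+ DC groups overlapped. Between populations the log2 fold change was 0.94 ± 0.24 and did not pass (edgeR adjusted p = 0.0687). It passed with either CD103+ DC1 library left out (adjusted p = 0.0132 and 0.0123, at 0.92 and 0.97), as well as by DESeq2 (0.00602) and with no filter on low counts (0.0301).

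Maf, the large MAF factor of resident macrophages, was at 25.9 and 13.7 CPM in CD103+ DC1, 54.2 and 60.5 CPM in Rag2-/- ISG+ DC, and 171 and 164 CPM in WT ISG+ DC. The groups did not overlap, with WT ISG+ DC well apart. Its log2 fold change of 1.52 ± 0.38 between populations missed the threshold (edgeR adjusted p = 0.0578). It passed without CD103+ DC1 replicate 2, at 2.06 (adjusted p = 0.000738), with the replicate block (0.0284), by DESeq2 (0.00461) and with no filter (0.00346).

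Batf3, the AP-1 factor that sustains Irf8 in DC1, was among the members with the least counts, 101 to 475 per library. Its level was 31.6 and 17.3 CPM in CD103+ DC1, 8.88 and 10.3 CPM in Rag2-/- ISG+ DC, and 16.5 and 16.3 CPM in WT ISG+ DC. CD103+ DC1 replicate 3 lay within 1 CPM of WT ISG+ DC. The log2 fold change between populations was -1.35 ± 0.67, and no alternative setting brought it past the threshold (adjusted p = 0.185 to 0.95).

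Nfil3, the repressor placed upstream in the DC1 branch, was at 17.5 and 36.7 CPM in CD103+ DC1 and 42.7 and 44.5 CPM in Rag2-/- ISG+ DC. It reached 181 and 131 CPM in WT ISG+ DC, above both Rag2-/- groups. The difference between populations, 0.70 ± 0.41 on the log2 scale, did not pass (edgeR adjusted p = 0.488). It was 1.34 without CD103+ DC1 replicate 3 (adjusted p = 0.0381) and 0.24 without replicate 2. Within libraries, the log2 ratio of Zeb2 to Nfil3 was 1.72 and 1.03 in CD103+ DC1, 3.82 and 3.97 in Rag2-/- ISG+ DC, and 2.59 and 3.28 in WT ISG+ DC.

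Zbtb46, the factor that marks conventional DC, was at 260 and 267 CPM in CD103+ DC1, 157 and 111 CPM in Rag2-/- ISG+ DC, and 32.2 and 52.3 CPM in WT ISG+ DC. The groups did not overlap and ran in the reverse order of Zeb2, Klf4 and Maf. Between populations its log2 fold change was -0.98 ± 0.32 and did not pass (edgeR adjusted p = 0.163). It passed without CD103+ DC1 replicate 2 (adjusted p = 0.0459). In the GRCm38 annotation 5 other genes overlap Zbtb46, among them Zgpat and Lime1, so without a strand setting part of its reads could be theirs.

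Bcl6 was at 203 and 159 CPM in CD103+ DC1, 185 and 160 CPM in Rag2-/- ISG+ DC, and 87.5 and 109 CPM in WT ISG+ DC. The Rag2-/- groups overlapped, with a log2 fold change of -0.07 ± 0.28 (edgeR adjusted p = 0.951). The sign turned when CD103+ DC1 replicate 2 (0.11) or Rag2-/- ISG+ DC replicate 3 (0.03) was left out.

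**Figure D3:**
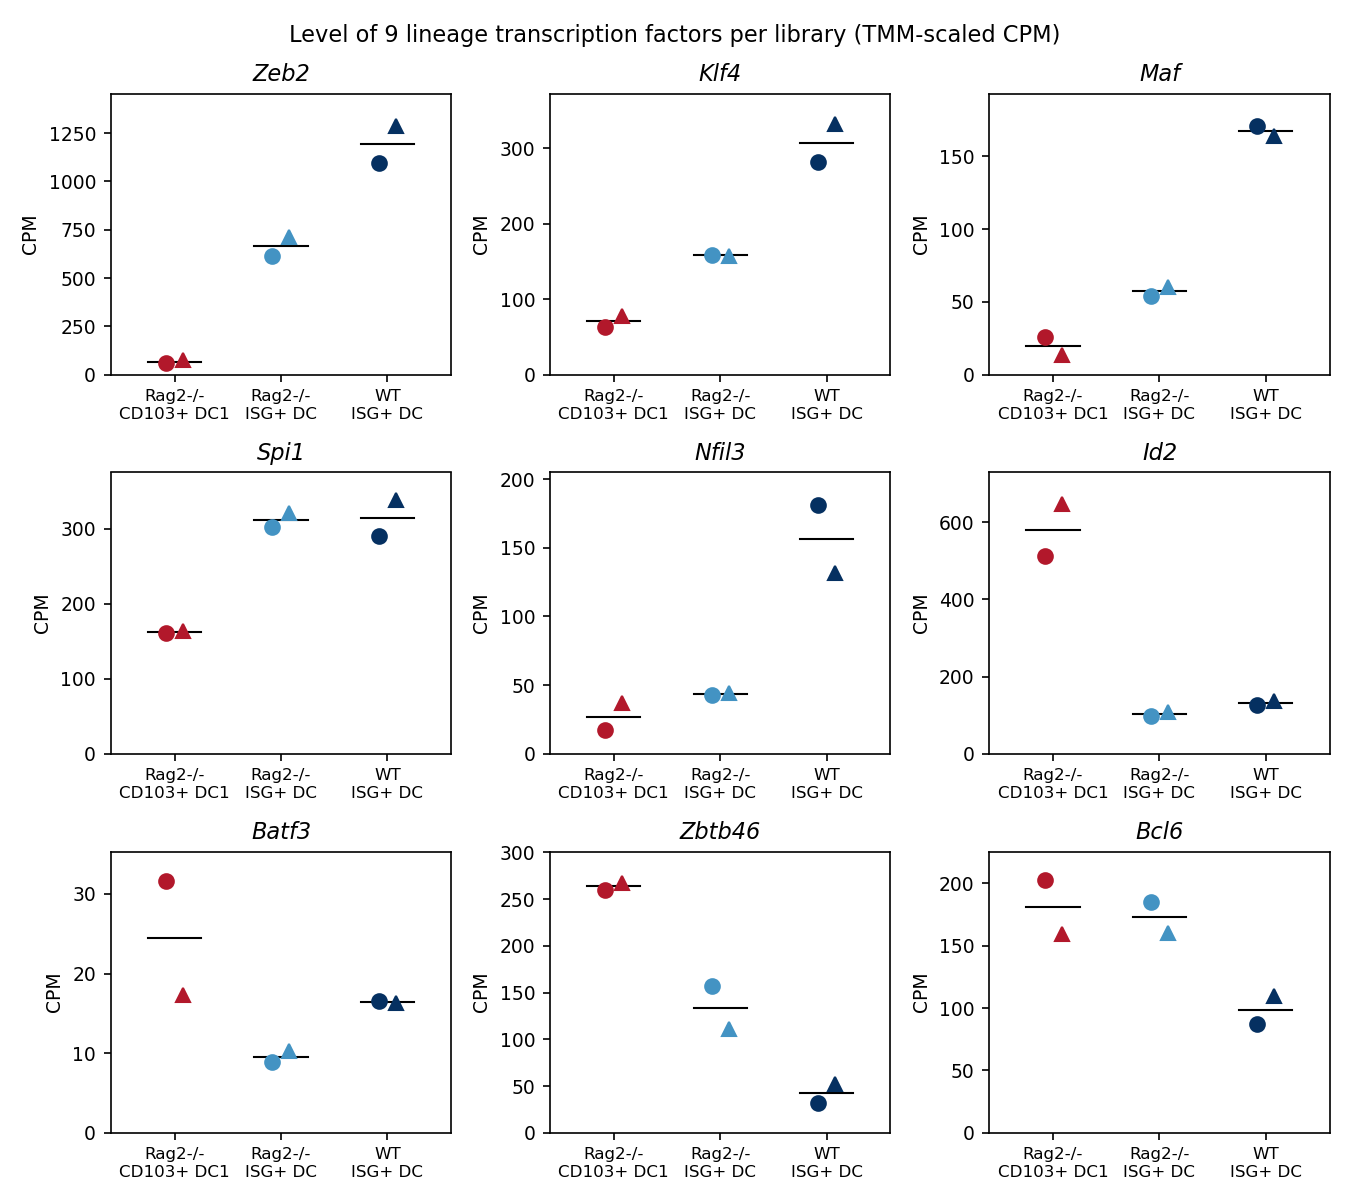
TMM-scaled CPM of the 9 members in each library (circle, lower replicate number; triangle, higher; line, group mean; n = 2 per group; every axis starts at 0). Zeb2, Klf4 and Maf climb and Zbtb46 declines across the 3 groups, while Id2 is high in CD103+ DC1 only, at 513 and 647 CPM against 98.0 to 137 in the other 4 libraries.

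The second comparison set the libraries labelled ISG+ DC from WT hosts against those labelled ISG+ DC from Rag2-/- hosts. None of the 9 members passed edgeR's test, where 0.552% of all genes tested passed (0.287% higher and 0.265% lower). At an unadjusted p under 0.05 stood 6 members: Maf, Klf4, Zeb2 and Nfil3 with higher levels in WT hosts, and Zbtb46 and Bcl6 with lower ones. Of all genes tested, 9.88% had such a p. The groups did not overlap in 8 of the 9 members, against 44.5% of all genes tested. Median log2 fold changes were 0.78 over the members and -0.03 over all genes.

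Nfil3 was at 156 ± 35.4 CPM (SD, n = 2) in WT hosts and 43.6 ± 1.28 CPM in Rag2-/- hosts. Its log2 fold change was 1.84 ± 0.42 (edgeR adjusted p = 0.0881). Zbtb46 was at 42.2 ± 14.2 against 134 ± 32.3 CPM, a log2 fold change of -1.66 ± 0.33 (edgeR adjusted p = 0.0534). Maf stood at 167 ± 4.93 against 57.4 ± 4.47 CPM, or 1.55 ± 0.37 (edgeR adjusted p = 0.108). Each of these differences was larger than the spread between the 2 libraries of either group.

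Klf4 (307 ± 35.0 against 158 ± 1.31 CPM; log2 fold change 0.96 ± 0.26, edgeR adjusted p = 0.162) and Zeb2 (1191 ± 134 against 664 ± 69.9 CPM; 0.84 ± 0.24, edgeR adjusted p = 0.174) were also at non-overlapping levels. Bcl6 was at 98.4 ± 15.5 against 173 ± 17.7 CPM, a log2 fold change of -0.81 ± 0.29 (edgeR adjusted p = 0.324). Id2 (0.37 ± 0.25, edgeR adjusted p = 0.72) and Batf3 (0.78 ± 0.66, edgeR adjusted p = 0.813) differed less in relation to their errors. Spi1 had nearly the same mean in both hosts, 314 ± 34.1 and 311 ± 13.2 CPM, with a log2 fold change of 0.01 ± 0.24 (edgeR adjusted p = 0.997); its sign turned with total-count scaling, at -0.07.

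How many members passed in the host comparison changed with the libraries and settings used. The count rose when either CD103+ DC1 library was left out, although neither is part of the contrast, and so did the count over all genes. It was 5 by DESeq2 and in a fit to the 2 ISG+ DC groups alone, and 3 with no filter on low counts. Over all genes 571 of 16422 passed by DESeq2, 444 of 12359 in that fit and 555 of 16422 with no filter. As reported, 73 of 13223 passed. The 5 genes by DESeq2 and in the fit to 2 groups were Maf, Klf4, Zeb2, Nfil3 and Zbtb46, and their log2 fold changes there differed from those above by less than the SE. Without WT ISG+ DC replicate 2, Zbtb46 was the 1 member to pass, at -2.06 (adjusted p = 0.047). Without Rag2-/- ISG+ DC replicate 2, Rag2-/- ISG+ DC replicate 3 or WT ISG+ DC replicate 1 none passed.

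Marker lists of macrophages and of conventional DC also differed in their sums between hosts. Macrophage and monocyte markers summed to 9703 to 9791 CPM in WT and 3089 to 4759 CPM in Rag2-/- ISG+ DC. Of these 14 markers 11 were higher in WT, and 1 passed the test. The conventional DC list, which does not hold Zbtb46, summed to 229 to 360 against 508 to 647 CPM. None of its 5 genes was higher in WT, and 1 passed, where 0.552% of all genes tested passed. The CD11b+ cDC2 list had a median log2 fold change of -0.61, and none of it passed. The part of these cell types in the differences of the members was not tested.

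**Figure D4:**
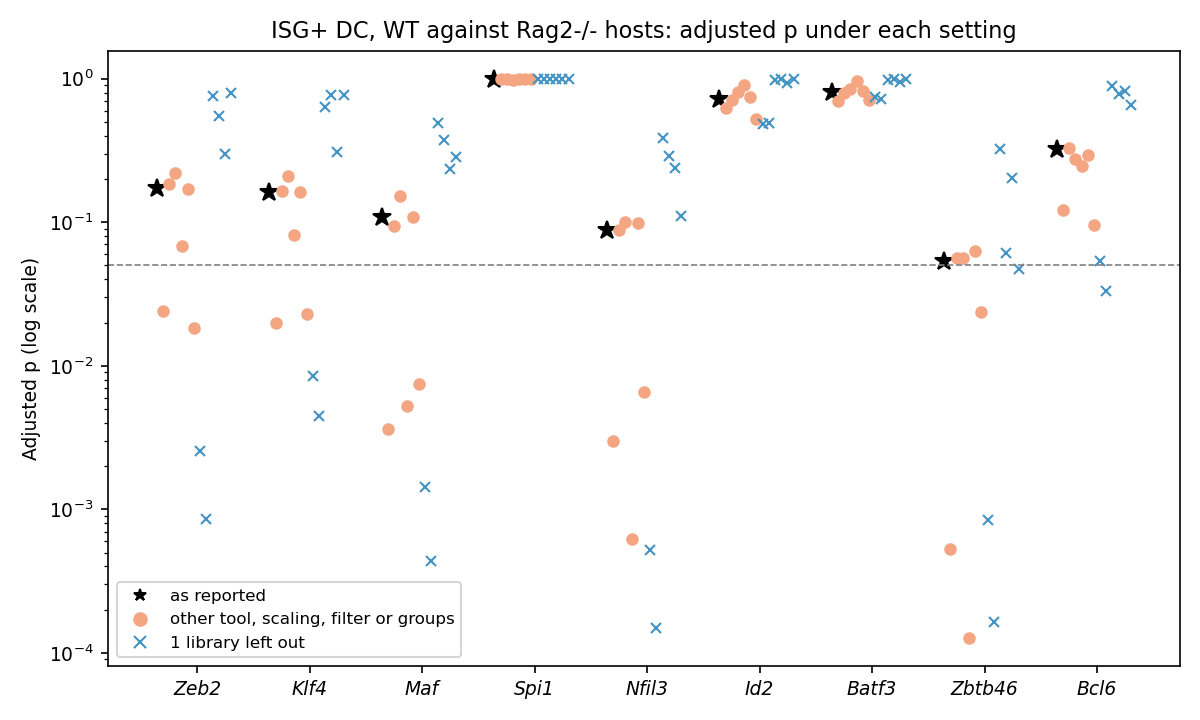
Adjusted p (log scale) of each member for ISG+ DC of WT against Rag2-/- hosts, as reported (star), under another tool, scaling, filter or set of groups (orange) and with 1 library left out (crosses); the dashed line is 0.05. Maf, Klf4, Zeb2, Nfil3 and Zbtb46 fall on both sides of the line, whereas Spi1, Id2 and Batf3 stay above it in all 12 alternatives.

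WT ISG+ DC set against Rag2-/- CD103+ DC1 differ in both population and host, which cannot be told apart here. This comparison shares its samples with the 2 above. Of the 9 members 7 passed, 5 higher and 2 lower in WT ISG+ DC, where 9.14% of all genes passed (5.52% higher and 3.62% lower). The groups did not overlap in any of the 9, against 51.4% of all genes tested. An unadjusted p under 0.05 was found for 8 of the 9 and for 21.9% of all genes tested. Zeb2 was 17.5-fold, Maf 8.38-fold, Nfil3 5.81-fold, Klf4 4.35-fold and Spi1 1.93-fold higher, while Zbtb46 was 6.24-fold and Id2 4.39-fold lower.

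The log2 change of Zeb2 was 4.13 ± 0.27 (edgeR adjusted p = 4.85e-05), that of Maf 3.07 ± 0.40 (0.000951) and that of Klf4 2.12 ± 0.27 (0.000947). Nfil3 rose by 2.54 ± 0.43 (edgeR adjusted p = 0.00449), or by 3.17 without CD103+ DC1 replicate 3. Zbtb46 fell by 2.64 ± 0.34 (edgeR adjusted p = 0.000947) and Id2 by 2.13 ± 0.26 (0.00068). These 6 calls held in all 12 alternatives. Spi1, at 0.95 ± 0.24 (edgeR adjusted p = 0.036), lost its call in a fit to these 2 groups (0.113) and without any 1 of the 4 ISG+ DC libraries (0.0848 to 0.285, at values of 0.83 to 1.06). Bcl6 (-0.88 ± 0.29, edgeR adjusted p = 0.0921) and Batf3 (-0.58 ± 0.66, edgeR adjusted p = 0.685) did not pass; Bcl6 passed by DESeq2 (0.0221) and without CD103+ DC1 replicate 3, at -1.03 (0.0116).

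**Figure D5:**
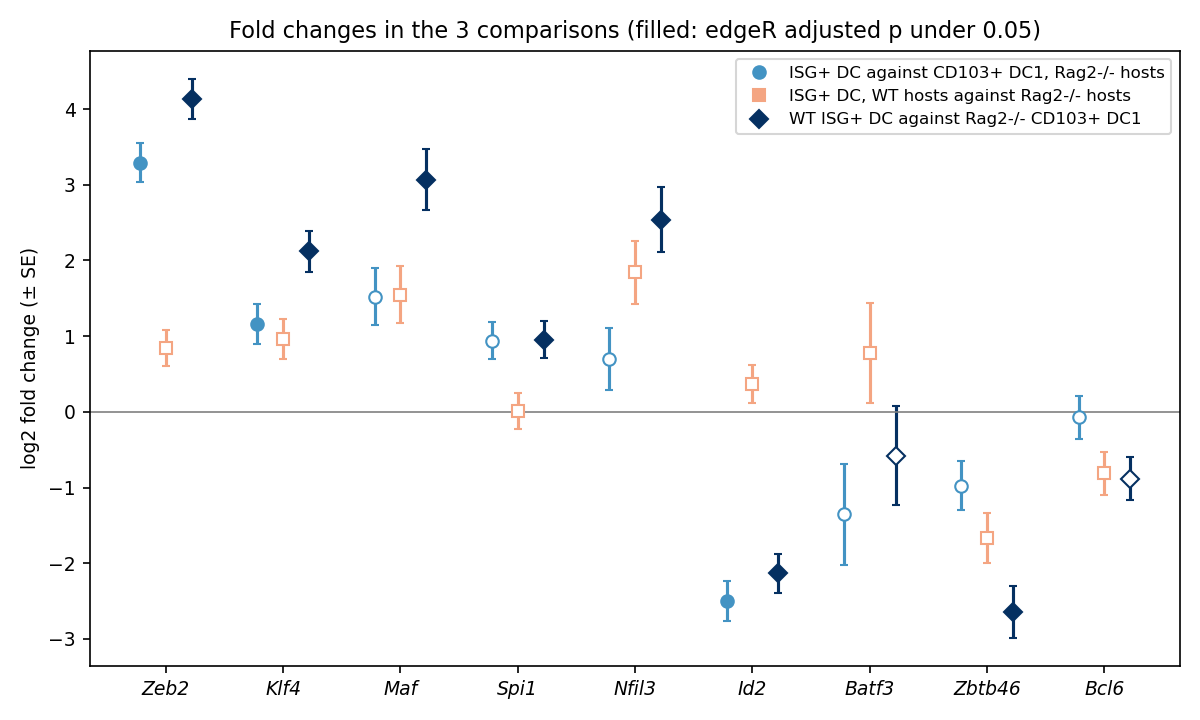
Log2 fold change ± SE of the 9 members in the 3 comparisons, which share samples; filled symbols passed edgeR's test at an adjusted p under 0.05. Zeb2 and Id2 are filled in both comparisons with CD103+ DC1, and no symbol is filled between hosts.

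Within libraries, Maf against Batf3 separated the groups with little spread. The log2 ratio was -0.27 and -0.32 in CD103+ DC1, 2.48 and 2.45 in Rag2-/- ISG+ DC, and 3.29 and 3.26 in WT ISG+ DC. Klf4 against Batf3 was at 0.99 and 2.11 in CD103+ DC1, 4.02 and 3.81 in Rag2-/- ISG+ DC, and 4.01 and 4.27 in WT ISG+ DC, so for this pair the CD103+ DC1 libraries stood below the 4 ISG+ DC libraries, which ran together.

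Relatives and partners of the members, 45 genes of which 44 were tested, give the family around them. Between populations in Rag2-/- hosts 5 rose and none fell (11.4%, against 3.69% of all genes tested), with a median of 0.52. Between hosts none passed, against 0.552% of all genes tested. There 6 of 44 stood at an unadjusted p under 0.05 (9.88% of all genes tested), with a median of 0.33. In the third comparison 8 rose and 1 fell (20.5%, against 9.14% of all genes tested), with a median of 0.69. Among those that rose were Jun, Ets2, Elk3 and Prdm1, of which the last 3 are named after their values were seen. Jun, an AP-1 partner of BATF3 that also responds to tissue dissociation, rose by 2.02 ± 0.25 between populations in Rag2-/- hosts (edgeR adjusted p = 0.00154). It was at 573 ± 14.4 and 569 ± 31.5 CPM in the ISG+ DC of the 2 hosts.

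Zeb1, the paralog of Zeb2, is named after its values were seen. It was at 80.8 and 144 CPM in CD103+ DC1, 61.4 and 50.1 CPM in Rag2-/- ISG+ DC, and 34.0 and 28.3 CPM in WT ISG+ DC, the reverse order of Zeb2. Zeb1 did not pass between populations in Rag2-/- hosts (-1.01, edgeR adjusted p = 0.247; 0.0184 without CD103+ DC1 replicate 2, at -1.37) and was lower in WT ISG+ DC than in CD103+ DC1 (-1.85, edgeR adjusted p = 0.017), a call lost in a fit to these 2 groups (0.0558) and without WT ISG+ DC replicate 2 (0.0871). The log2 ratio of Zeb2 to Zeb1 within a library was -0.42 and -0.91, then 3.30 and 3.80, then 4.97 and 5.45 in the 3 groups. Prdm1, which encodes BLIMP-1, a repressor that opposes BCL6 in lymphocytes, was at 0.997 and 0 CPM in CD103+ DC1, 6.61 and 20.3 CPM in Rag2-/- ISG+ DC, and 58.4 and 66.2 CPM in WT ISG+ DC. Its rise between populations passed (edgeR adjusted p = 0.0321) but rests on a library at 0, so no fold is given, and the call was lost without Rag2-/- ISG+ DC replicate 3 (0.0974).

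Of 36 other lineage factors tested, 6 rose and 1 fell between populations in Rag2-/- hosts (median log2 fold change 0.71), 1 rose between hosts (median 0.02), and 10 rose and 2 fell in the third comparison (median 0.80). These calls were 19.4%, 2.78% and 33.3% of the list, against 3.69%, 0.552% and 9.14% of all genes tested. Irf8, the partner of BATF3, was the 1 that fell between populations, by 2.93 ± 0.38 (edgeR adjusted p = 0.00188), or by 2.21 without CD103+ DC1 replicate 2. Irf4, a cDC2 factor named after its values were seen, was at 5.32 and 11.1 CPM in CD103+ DC1, 74.5 and 88.1 CPM in Rag2-/- ISG+ DC, and 61.1 and 72.4 CPM in WT ISG+ DC. Cebpa, a myeloid factor also named after its values were seen, rose by 2.74 between populations in Rag2-/- hosts (edgeR adjusted p = 0.00685). Cebpb, which acts in monocytes and macrophages, was the 1 factor to pass between hosts, at 85.8 and 121 CPM in Rag2-/- and 552 and 549 CPM in WT ISG+ DC, against 32.6 and 16.4 CPM in CD103+ DC1. Its log2 difference between hosts was 2.41 ± 0.35 (edgeR adjusted p = 0.0194), and that call was lost without Rag2-/- ISG+ DC replicate 2, at 2.19 (0.106).

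Genes known as targets of these factors were followed by lists. Of 11 textbook PU.1 targets, 5 rose and 1 fell between populations (median 1.49), 1 rose and 1 fell between hosts (median 0.53), and 9 rose and 1 fell in the third comparison (median 2.55). That is 54.5%, 18.2% and 90.9% of the list, against 3.69%, 0.552% and 9.14% of all genes tested. The list shares Itgam, Flt3 and Csf3r, among others, with the marker lists. Between populations Itgam, which encodes CD11b, rose by 3.99 ± 0.25 (edgeR adjusted p = 8.88e-05) and Cybb, the phagocyte oxidase, by 4.55 ± 0.29 (8.88e-05). Flt3, the receptor that drives conventional DC development, was the 1 that fell, from 490 and 330 CPM in CD103+ DC1 to 145 and 91.3 CPM in Rag2-/- ISG+ DC and 15.8 and 32.4 CPM in WT ISG+ DC. Its groups did not overlap and had the order of Zbtb46. Its log2 change was -1.80 ± 0.39 between populations (edgeR adjusted p = 0.0321; call lost without Rag2-/- ISG+ DC replicate 3, at -1.50) and -2.29 ± 0.41 between hosts (edgeR adjusted p = 0.0411). The host call was lost without Rag2-/- ISG+ DC replicate 2 (0.138), without WT ISG+ DC replicate 1 (0.0602) and under a stricter filter (0.0546), and Flt3 was at -2.91 without WT ISG+ DC replicate 2. Csf3r, the G-CSF receptor of neutrophils and monocytes, rose in WT hosts by 2.90 ± 0.49 (edgeR adjusted p = 0.035), a call lost without either Rag2-/- ISG+ DC library (0.0833 and 0.142).

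Of 6 textbook MAF targets, a list that shares genes with the macrophage markers, 4 were tested. The 3 subunit genes of complement C1q rose between populations and in the third comparison. None passed between hosts, where 3 of the 4 had an unadjusted p under 0.05. Of all genes tested 3.69% passed between populations, 9.14% in the third comparison and 0.552% between hosts, where 9.88% had such a p. The list's medians were 2.43, 3.84 and, between hosts, 1.39. C1qb was at 40.2 and 16.1 CPM in CD103+ DC1, 129 and 240 CPM in Rag2-/- ISG+ DC, and 510 and 455 CPM in WT ISG+ DC. Its rise between populations was 2.70 ± 0.45 (edgeR adjusted p = 0.00726), or 3.51 without CD103+ DC1 replicate 2, and that of C1qc was 3.07 ± 0.55 (0.011), or 4.28 and 2.49 with CD103+ DC1 replicate 2 or 3 left out. All 9 BATF3- and IRF8-dependent DC1 genes fell between populations (median -3.30) and in the third comparison (median -4.06). Of all genes tested 0.862% and 3.62% fell there. None of the 9 passed between hosts (median -0.83), where 3 had an unadjusted p under 0.05, against 9.88% of all genes tested. This list holds Irf8 itself, which is also counted among the lineage factors above. Its other genes, Xcr1 and Clec9a among them, are all DC1 markers too. They include Itgae, which encodes CD103, the marker that the CD103+ DC1 group is named for. A fall of such genes outside that group follows in part from the sort, so it is no separate support. Batf3 itself had non-overlapping groups without passing the test.

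Expression patterns were compared over the 6 libraries by the root mean square (RMS) difference of log2(CPM + 1), each gene centred on its own mean, among 8561 genes whose mean reached 10 CPM. The 3 genes most like Zeb2 were Ccl9 (0.13), Tlr2 (0.19) and Gda (0.20), where the pattern of Zeb2 itself had an RMS spread of 1.78. Those most like Maf were Rgl1 (0.14), Mmp14 (0.18) and Lgmn (0.20), and those most like Klf4 were Dennd4c (0.12), Ptafr (0.15) and Tbc1d2b (0.16). Id2 was closest to Cst3 (0.18), Myst4 (0.25) and Ppt1 (0.26), and Zbtb46 to Spag1 (0.16), Cdca7l (0.18) and Ckap2l (0.21).

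Nfil3 was closest to Tns1 (0.24), Cndp2 (0.25) and Slc37a2 (0.28), and only 5 genes lay within 0.3 of it. Batf3 was closest to Rab43 (0.16), Tbc1d9 (0.19) and Plcg1 (0.21). The flatter patterns of Spi1 (Snx1, 0.08; Pik3ca, 0.09; Ncoa1, 0.09) and Bcl6 (Myst1, 0.07; Apobec3, 0.07; Phf17, 0.10) had 485 and 328 genes within 0.3, so their nearest genes single out little. Among the members themselves the closest pair was Klf4 and Nfil3, at 0.46, followed by Spi1 and Klf4 at 0.51 and Maf and Klf4 at 0.53.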

How the data were processed

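RNA from sorted DC was sequenced in 6 libraries. The deposited values are the authors' estimated counts from RSEM, without normalization; 16.1% of values are not whole. Bowtie 1.2.3, RSEM 1.3.1 and build mm9 come from the submitters' processing notes. No annotation, strand setting or filter is stated. Libraries came from a low-input kit for stranded total RNA, per the labels' protocols, although the labels' molecule field names polyA RNA.

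Rounded counts entered edgeR 4.0.16 under R 4.3.3 (filterByExpr, TMM, glmQLFit and glmQLFTest) in 1 fit over the 6 libraries, with 3 residual degrees of freedom and a common biological coefficient of variation of 0.703. Tests were two-sided. Each SE is the log2 fold change over the root of its F statistic. The procedure was also run on simulated data, but its recovery rates there are not given, so no conclusion is drawn from that run. DESeq2 1.42.0 was an alternative, as were other scalings, filters, fits to 2 groups and leaving out each library.

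The members and lists were chosen with earlier results of these data known. Named genes are the members, from each list the 2 smallest p-values between populations and up to 3 calls between hosts, and the 3 genes of most alike pattern. Of 152 listed genes 151 were found; Ly6g was not matched. RefSeq promoter windows belong to GRCm38.p6, another build than the files. The Zbtb46 window was not used because it ends like the intron before an internal exon. 1 gene that the rule names is not reported here.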

Additional observations from a re-analysis of the deposited data

How the results depend on the processing

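The number of genes past the threshold was 488 between populations in Rag2-/- hosts, 73 between hosts and 1209 in the third comparison. By DESeq2 it was 1109, 571 and 2168, with no filter on low counts 1087, 555 and 1890, and in fits to 2 groups 297, 444 and 683. With 1 library left out it ran from 278 to 2068, from 27 to 801 and from 837 to 2754; where a group then held 1 library, that library was assumed to vary like the others. The members past the threshold, 3, 0 and 7 as reported, numbered 5 between populations by DESeq2 and with no filter. Between hosts they numbered 5 by DESeq2, 3 with no filter and 5 in the fit to 2 groups. With 1 library left out they numbered 2 to 6 between populations, 0 to 6 between hosts and 6 to 8 in the third comparison. The causes of these shifts were not tested.

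Some signs turned. Bcl6 ran from -0.21 to 0.11 between populations with 1 library left out. Between hosts Spi1 was at -0.068 with total-count scaling and ran from -0.11 to 0.12 with 1 library left out. Jun, at -0.011 between hosts, was at 0.0044 by DESeq2 and 0.0048 with RLE factors, and ran from -0.075 to 0.042 with 1 library left out, and Clec9a, at 0.63 between hosts, ran from -0.038 to 1.34. The other members kept their direction in all settings run.

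The replicate numbers are shared by the Rag2-/- groups, but the labels do not say that a number marks a shared experiment, and the deviations of the same-numbered libraries were uncorrelated (-0.00239). With the replicate block 715 genes and 3 members passed between populations: Maf gained its call and Klf4 lost it. No paired analysis was possible between hosts because those groups share 1 number. At these depths 3 counts correspond to 0.189 to 0.514 CPM per library, well under the levels of all 9 members.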
